A study of Mus musculus with 8 samples.

Results

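The genes described here are the 4 Notch receptors of the mouse (Notch1, Notch2, Notch3 and Notch4) and 5 of their ligands, the Delta-like genes Dll1, Dll3 and Dll4 and the Jagged genes Jag1 and Jag2. They were taken by symbol, as members of 1 gene family, and make up 9 of the 38355 genes in the count tables. RNA was sequenced from whole colon tumours of 8 mice, 1 tumour per mouse, with 4 replicates in each of the groups Trp53ΔIEC and Trp53ΔIECAktE17K. All 8 mice had been given azoxymethane, a colon carcinogen, and in both groups the genotype name gives a change of Trp53 in intestinal epithelial cells (ΔIEC, in the notation of the field), so the control tumours carry it as well. The Trp53ΔIECAktE17K mice in addition carry AktE17K, an activated form of the AKT kinase. Neither the age of the mice nor the promoter behind either change is given in the labels used here. A whole tumour holds stromal, vascular and immune cells beside the epithelium in which the genes were altered.

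Notch receptors are single-pass membrane proteins that are bound by Delta-like or Jagged ligands on a neighbouring cell. Pull on the receptor exposes it to cleavage, first by ADAM proteases and then by γ-secretase, and the freed intracellular domain joins RBPJ and Mastermind-like proteins in the nucleus to switch on Hes, Hey and Nrarp genes. In the intestine, Notch1 and Notch2 keep crypt cells from becoming secretory cells, and Dll1 and Dll4 are the crypt ligands. In the vessel wall Dll4 and Notch4 are genes of the endothelium, and Notch3 is a gene of pericytes and vascular smooth muscle cells, where endothelial Jag1 is among its ligands. The series title names NOTCH3 activation downstream of AKT as the subject, and the comparison asks how these genes differ between tumours with and without AktE17K. Counts of mRNA measure transcript levels, not the cleaved, active receptor.

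Reads assigned to genes ranged from 18572180 to 26268547 per tumour. The mRNA of Trp53 was detected in both groups, at 20.8 to 25.8 CPM (counts relative to library size after TMM scaling) in Trp53ΔIEC and 24.8 to 37.1 CPM in Trp53ΔIECAktE17K tumours. Neither this gene nor Akt1 (log2 fold change of -0.10) differed past the test, and counts summed over a gene in whole tumours do not show the deleted part or the substitution. Markers of colon epithelium were present in every tumour, with 9 listed genes summing to 9928 to 12333 CPM in Trp53ΔIEC and 5240 to 12968 CPM in Trp53ΔIECAktE17K tumours, and edgeR called 0 of the 9 (3 lower at an unadjusted p under 0.05, and 2 lower in DESeq2). All 9 had a log2 fold change below 0, with a median of -0.45. The 13 listed heart muscle genes, which do not belong to colon, summed to 15.6 to 39.0 CPM in Trp53ΔIEC and to 196 to 238 CPM in all 4 Trp53ΔIECAktE17K tumours, with 10 of 12 tested genes called higher (Actc1 and Myh6 first). Of 12 hepatocyte genes, 10 were tested and 2, Crp and Hpx, were called lower, with sums of 57.7 to 93.9 and 19.1 to 141 CPM. In Trp53ΔIECAktE17K replicate 3, Fgb alone was at 126 CPM, and the other tumours of that group had sums of 19.1 to 31.3 CPM. Immune genes summed to 75.2 to 372 and 133 to 447 CPM, with 0 of 6 called in edgeR, DESeq2 or limma-voom (1 higher at an unadjusted p under 0.05) and Cd68 and Adgre1 first by p-value. The heart muscle sums did not overlap between the groups, whereas the colon epithelium, hepatocyte and immune sums did. The part of any of these lists in the results that follow was not tested. Of all cell type lists, only vascular ones were set against members in a test, below.

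Of the 9 genes, 8 had enough reads to be tested and Notch3 was the 1 called, higher in Trp53ΔIECAktE17K tumours; DESeq2 called the same 1 gene and limma-voom 0. A gene was called at an adjusted p under 0.05 in edgeR's quasi-likelihood test, with Benjamini-Hochberg adjustment over all 16539 genes tested. Over all tested genes, 4.20% were called, 3.44% higher and 0.76% lower in Trp53ΔIECAktE17K tumours. At this background the 1 call among 8 genes is no result about the family. Of the same 16539 genes DESeq2 called 1416 higher and 753 lower, and limma-voom 432 and 115. The median log2 fold change of the 8 genes was -0.03, against 0.01 over all tested genes, and 4 of the 8 had a fold change above 0. Notch3 was also the 1 gene of the 8 whose values did not overlap between the groups, a pattern that 14.2% of all tested genes showed.

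**Figure D1:**
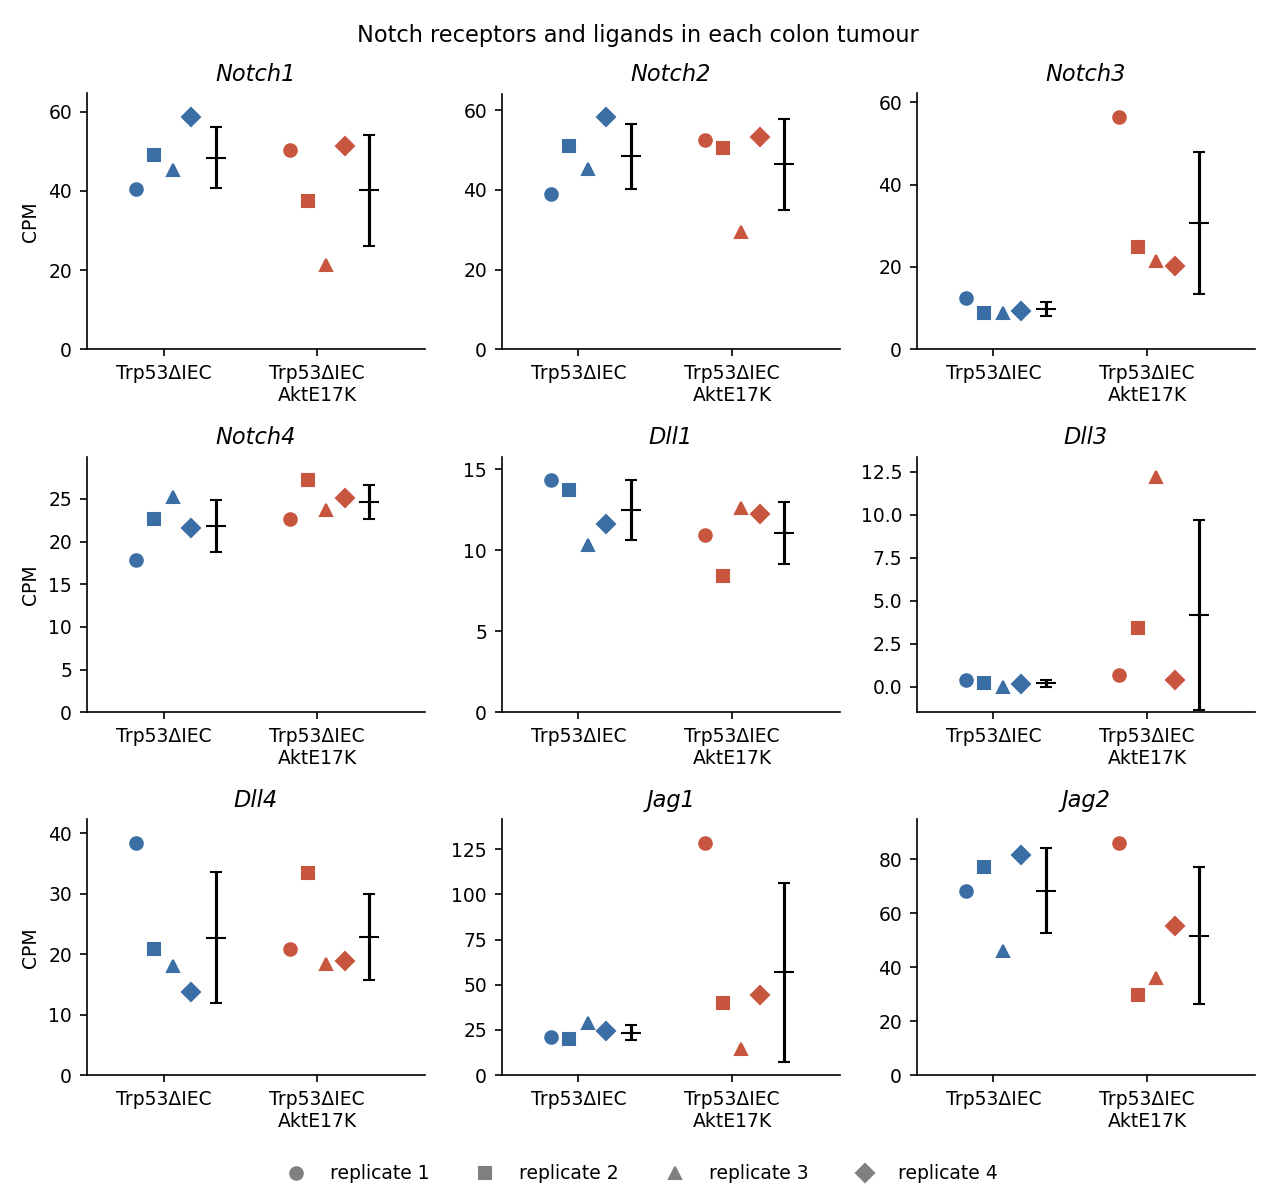
CPM of each receptor and ligand gene (vertical axes, linear, in CPM) in the 4 Trp53ΔIEC tumours (blue) and the 4 Trp53ΔIECAktE17K tumours (red), with marker shape giving the replicate and the black bar the mean ± SD (n = 4). Notch3 is the panel in which all red points lie above all blue points, and Jag1 and Dll3 show 1 red tumour far above the rest.

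Notch3 (ENSMUSG00000038146) lies on chromosome 17, 32120820 to 32166852, on the minus strand of GRCm38. The 250 bases before its start are shown because Notch3 was the called gene and shared its pattern over the tumours with other genes described below. They are chr17:32166891-32167140 on the minus strand of GRCm38.p6, from RefSeq, outside the gene's exons, written 5′ to 3′ with matches to the SP1 letters GGGCGG, on either strand, in capitals:

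Notch3 upstream: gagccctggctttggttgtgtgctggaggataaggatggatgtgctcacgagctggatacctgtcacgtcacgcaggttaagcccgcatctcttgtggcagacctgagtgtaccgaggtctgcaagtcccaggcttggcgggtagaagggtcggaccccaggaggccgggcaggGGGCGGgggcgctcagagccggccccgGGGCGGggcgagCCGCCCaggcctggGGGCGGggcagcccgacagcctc

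The window holds 4 such matches, which begin 76, 49, 37 and 23 bases before the start, and at least 1 match stands in 32.7% of the 32851 upstream windows of the same length in the table. Its GC content was 68.8%, against a median of 52.4% over those windows. Neither trait was particular to the called gene: Notch1, Notch2 and Jag2 had 5 matches each and a GC content of 66%, 72% and 87.2%. Dll4 had 2 matches, Dll3 had 1, and Notch4, Dll1 and Jag1 had 0. Letters that RBPJ (TGGGAA), TEAD factors (GGAATG) and AP-1 (TGANTCA) are known to bind, and the CArG box of serum response factor, were searched on both strands and had 0 matches here. They occur in 21.6%, 12.6%, 6.75% and 1.47% of the windows. The RBPJ letters and the CArG box had no match upstream of the other receptor and ligand genes either. SP1 sites are common in GC-rich promoters, and a match of letters is a description of the sequence, not of binding.

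In Trp53ΔIEC replicates 1 to 4 the level of Notch3 was 12.4, 8.69, 8.88 and 9.40 CPM (323, 231, 159 and 202 reads). In Trp53ΔIECAktE17K replicates 1 to 4 it was 56.5, 24.9, 21.5 and 20.3 CPM (1335, 604, 511 and 436 reads). The lowest Trp53ΔIECAktE17K tumour was therefore above the highest Trp53ΔIEC tumour, and replicate 1 was far above the other 3 tumours of its group. The fitted difference was 3.13-fold (95% interval 1.78 to 5.51), a log2 fold change of 1.65 with a standard error of 0.36 (edgeR, adjusted p = 0.0434). Among all tested genes 573 had a smaller p-value and 1034 a larger log2 fold change.

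The Notch3 call depended on the full set of tumours. With 1 tumour removed at a time, the test was missed in 6 of 8 runs (edgeR, adjusted p from 0.0551 to 0.123). Removing a Trp53ΔIEC tumour (replicate 1, then 2, 3 and 4) gave log2 fold changes of 1.77, 1.58, 1.58 and 1.62. Removing replicate 1 of Trp53ΔIECAktE17K gave 1.15, and removing its replicate 2 gave 1.72. The sample titles carry a letter of unstated meaning, which is A in 2 tumours, replicates 1 and 2 of Trp53ΔIECAktE17K, and B in 6. The names of the deposited tables carry a letter as well, and there all 4 Trp53ΔIECAktE17K tumours have A, so that the letter could not be told apart from the group. Within the 6 tumours whose titles have B the log2 fold change was 1.05 (edgeR, adjusted p = 0.168), so the direction held and the call did not. Reads of the antisense gene Gm17276, which shares 488 exonic bases with Notch3, numbered 0 to 3 per tumour.

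Per kilobase of exon, Notch3 had a mean of 1.22 ± 0.21 CPM per kb in Trp53ΔIEC and 3.81 ± 2.13 CPM per kb in Trp53ΔIECAktE17K tumours (SD, n = 4). It ranked 8th of the 9 genes in each Trp53ΔIEC tumour, and 3rd, 6th, 7th and 8th in Trp53ΔIECAktE17K replicates 1 to 4. As a share of the receptor RNA, the summed CPM per kb of the 4 receptors, Notch3 made up 15.0%, 8.91%, 9.46% and 8.68% in the Trp53ΔIEC tumours. In the Trp53ΔIECAktE17K tumours its share was 38.3%, 22.3%, 27.0% and 17.7%. The shares did not overlap between the groups. The mean share was 10.5 ± 3.0% and 26.3 ± 8.86%, while that of Notch1 was 28.7 ± 1.52% and 19.8 ± 4.21%, that of Notch2 37.8 ± 2.40% and 30.9 ± 4.15%, and that of Notch4 23.0 ± 2.96% and 23.0 ± 5.99%. Shares of 1 sum are tied to each other, so a larger Notch3 share lowers the others.

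**Figure D2:**
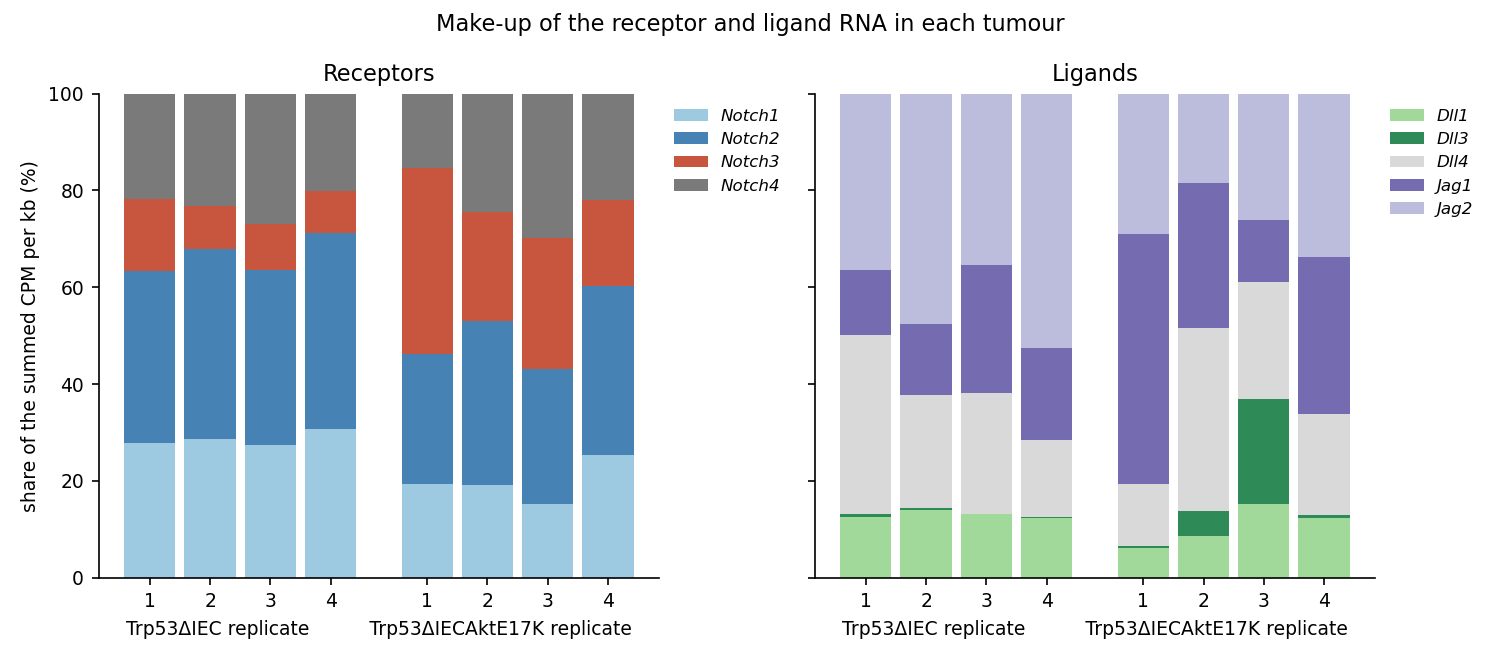
Share of each gene in the summed CPM per kb of the 4 receptors (left) and of the 5 ligands (right), in percent, for each tumour. The Notch3 band (red) takes 17.7% to 38.3% in the Trp53ΔIECAktE17K tumours and 8.68% to 15.0% in the Trp53ΔIEC tumours, and Jag1 (dark violet) takes 51.7% of the ligands in Trp53ΔIECAktE17K replicate 1.

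Markers of pericytes, the cells around small vessels in which Notch3 is best known, moved with it. Of 8 pericyte genes, 4 were called higher in Trp53ΔIECAktE17K tumours (Kcnj8 and Abcc9, subunits of a potassium channel, first), and all 8 had a log2 fold change above 0, with a median of 1.99. Their summed level was 176 to 289 CPM in Trp53ΔIEC and 284 to 603 CPM in Trp53ΔIECAktE17K tumours, with no marker at 0. In a bulk tumour, more cells of a type and more RNA per cell cannot be told apart. The pericyte score of a tumour is the mean log2 CPM of the 8 markers, and it was 3.66, 2.85, 3.04 and 3.02 in the Trp53ΔIEC tumours and 5.57, 4.97, 4.24 and 4.73 in the Trp53ΔIECAktE17K tumours. The score differed by 1.73 and the log2 CPM of Notch3 by 1.52 between the group means. Notch3 minus the score was -0.02, 0.28, 0.12 and 0.23 in Trp53ΔIEC and 0.25, -0.33, 0.19 and -0.38 in Trp53ΔIECAktE17K tumours, so the groups overlapped. The difference of the means was -0.22 (two-sided exact permutation test over 70 assignments, p = 0.314, and 0.314 after Benjamini-Hochberg adjustment over 3 such tests).

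Genes of other stromal lists were called higher as well, though not all members shared the direction. Of 9 smooth muscle genes 7 were called higher (Cnn1 and Des first), with sums of 392 to 666 CPM in Trp53ΔIEC and 1205 to 1958 CPM in Trp53ΔIECAktE17K tumours, while Mylk had a log2 fold change of -0.28. Of 8 fibroblast genes 3 were called higher (Col1a2 and Dcn first), with sums of 2256 to 3463 and 4292 to 7083 CPM, while Pdgfra had a log2 fold change of -0.84 (edgeR, adjusted p = 0.225). Of 7 enteric glia and neuron genes 5 were tested and 2, Uchl1 and Sox10, were called higher, with sums of 3.58 to 9.498 and 19.7 to 42.3 CPM; Sox10 was at 0 in all 4 Trp53ΔIEC tumours. Of these lists, pericyte markers alone were set against Notch3 in a test, and the part of the others in the Notch3 difference was not tested.

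The genes whose pattern over the 8 tumours was most like that of Notch3 were Fgfr1, Postn, Copz2, Igfbp3, Lrrc32, Srpx, Comp, Plxdc2, Zfp521 and Aebp1, in this order. Likeness is the root mean square difference between log2 CPM profiles, each centred on its own mean, over the 8 tumours and among tested genes with an average log2 CPM of at least 1. It was 0.16 for Fgfr1, a receptor for fibroblast growth factors, and 0.29 for Aebp1. Postn encodes periostin, a matrix protein that is also in the fibroblast list, Comp encodes a cartilage matrix protein, and Igfbp3 a protein that binds insulin-like growth factors. The log2 fold change was 1.65 for Fgfr1 (edgeR, adjusted p = 0.0256), 1.31 for Postn (0.0811) and 2.04 for Comp (0.0498). These genes were picked for likeness to Notch3 over the same tumours. Fold changes near that of Notch3 follow from this choice and are no separate result.

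Notch1 (ENSMUSG00000026923, chromosome 2, 26457903 to 26516663, minus strand), the main receptor of crypt progenitors together with Notch2, was at 40.5, 49.1, 45.2 and 58.7 CPM in the Trp53ΔIEC tumours and at 50.3, 37.5, 21.3 and 51.4 CPM in the Trp53ΔIECAktE17K tumours. The groups overlapped, and replicate 3 of Trp53ΔIECAktE17K was the lowest of all 8. Its log2 fold change was -0.27 (95% interval -0.89 to 0.35; edgeR, adjusted p = 0.622). Notch2 (ENSMUSG00000027878, chromosome 3, 98013527 to 98150361, plus strand) was at 38.9, 51.0, 45.3 and 58.4 CPM in Trp53ΔIEC and at 52.6, 50.5, 29.4 and 53.3 CPM in Trp53ΔIECAktE17K tumours. Again Trp53ΔIECAktE17K replicate 3 was the lowest. The log2 fold change of Notch2 was -0.06 (95% interval -0.56 to 0.44; edgeR, adjusted p = 0.911), with a sign that changed when 1 tumour was left out. That tumour also had the lowest sum of colon epithelium markers, 5240 CPM, and the part of this in its Notch1 and Notch2 levels was not tested.

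Notch4 (ENSMUSG00000015468, chromosome 17, 34564268 to 34588503, plus strand), an endothelial receptor, was at 17.9, 22.6, 25.3 and 21.6 CPM in Trp53ΔIEC and at 22.7, 27.2, 23.6 and 25.1 CPM in Trp53ΔIECAktE17K tumours. Its values overlapped between the groups and had the smallest spread of the receptors in Trp53ΔIECAktE17K tumours relative to the mean (24.7 ± 1.99 CPM). Its log2 fold change was 0.18 (95% interval -0.18 to 0.53; edgeR, adjusted p = 0.563). The upper bound is below the 1.65 fitted for Notch3 and below that gene's lower bound of 0.83.

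**Figure D3:**
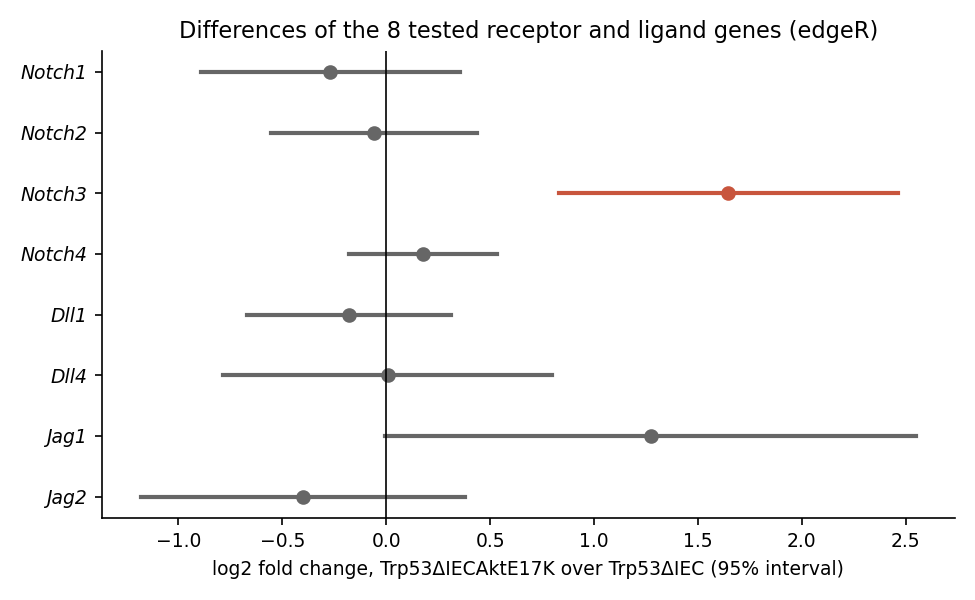
Log2 fold change of Trp53ΔIECAktE17K over Trp53ΔIEC (horizontal axis) for the 8 tested genes, with the 95% interval of the edgeR fit as a bar; red marks an adjusted p under 0.05. Notch3 lies at 1.65 with an interval above 0, and the interval of Jag1, at 1.27, reaches 0.

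Dll4 (ENSMUSG00000027314, chromosome 2, 119325784 to 119335962, plus strand), the Delta-like ligand of sprouting endothelium and of crypts, was at 38.5, 20.9, 18.0 and 13.7 CPM in Trp53ΔIEC and at 20.8, 33.4, 18.4 and 18.8 CPM in Trp53ΔIECAktE17K tumours. The highest tumour was Trp53ΔIEC replicate 1, and each group had 1 tumour well above its other 3. The fitted log2 fold change was 0.01 (95% interval -0.79 to 0.80; edgeR, adjusted p = 0.994). Reads of Gm14207, a gene on the other strand that shares 214 exonic bases with Dll4, numbered 32 to 204 per tumour, up to 20.3% of the Dll4 reads of a tumour. The library kit does not record the strand, so in the shared bases the transcripts of the 2 genes cannot be told apart.

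Endothelial markers were set beside Notch4 and Dll4. Of 12 vascular endothelium genes, 1 was called higher (Plvap, with Tie1 next by p-value), and all 12 had a log2 fold change above 0, with a median of 0.87. DESeq2 called 5 of them higher (1416 of all 16539 genes) and limma-voom 1 (432 of all). At an unadjusted p under 0.05 in edgeR, which 20.8% of all tested genes reached in either direction, 8 were higher. Their sums were 192 to 364 CPM in Trp53ΔIEC and 326 to 592 CPM in Trp53ΔIECAktE17K tumours, with no marker at 0. Dll4 minus the mean log2 CPM of the 12 markers was 0.93, 0.77, 0.22 and 0.08 in Trp53ΔIEC and -0.74, -0.21, -0.16 and -0.34 in Trp53ΔIECAktE17K tumours. The groups did not overlap, and the difference of the means was -0.86 (two-sided exact permutation test, p = 0.0286, the smallest that 4 against 4 can give). After Benjamini-Hochberg adjustment over the 3 tests it did not pass (exact permutation test, adjusted p = 0.0857).

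Notch4 minus the same markers was -0.18, 0.89, 0.70 and 0.74 in Trp53ΔIEC and -0.62, -0.50, 0.20 and 0.08 in Trp53ΔIECAktE17K tumours, and the groups overlapped through Trp53ΔIEC replicate 1. The difference was -0.75 (two-sided exact permutation test, p = 0.0857, adjusted p = 0.129). Between the group means the endothelial score differed by 0.93, the log2 CPM of Notch4 by 0.18 and that of Dll4 by 0.07. Of the 4 arterial endothelium genes 1, Gja4, was called higher. Sox17, next by p-value, had a log2 fold change in the other direction, -3.43 (edgeR, adjusted p = 0.0804), with 37.4 to 441 CPM in Trp53ΔIEC and 6.09 to 19.9 CPM in Trp53ΔIECAktE17K tumours. Its highest level was in Trp53ΔIEC replicate 1, the tumour with the highest Dll4. In that tumour the other arterial genes were at 3.52 (Gja4), 5.20 (Gja5) and 124 CPM (Efnb2). The cell type behind the Sox17 level was not tested. The sums of the 4, to which Sox17 contributed most in that tumour, were 107 to 573 CPM in Trp53ΔIEC and 41.0 to 127 CPM in Trp53ΔIECAktE17K tumours. Lymphatic endothelium genes summed to 210 to 258 and 76.2 to 286 CPM, with Flt4 and Lyve1 first by p-value. Of these 3 genes edgeR called 0 (1 higher at an unadjusted p under 0.05), and DESeq2 called 1 higher. Prox1 alone, at 198 to 248 and 57.6 to 263 CPM, made up most of the sum in every tumour. Its log2 fold change was -0.58, whereas Flt4 (1.16) and Lyve1 (0.81) went the other way at levels of at most 19.4 CPM. The sums therefore mainly follow Prox1.

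**Figure D4:**
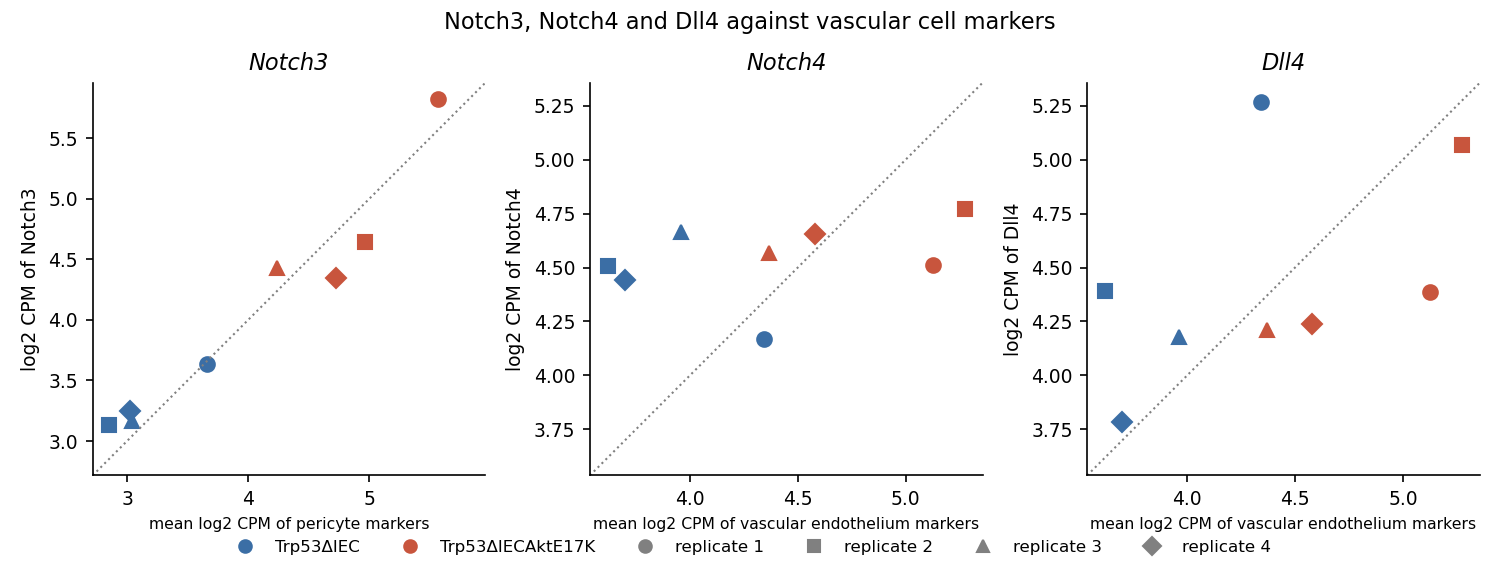
Log2 CPM of Notch3, Notch4 and Dll4 (vertical axes) against the mean log2 CPM of the pericyte (left) or vascular endothelium markers (middle and right; horizontal axes) in the 8 tumours, with colour for the group and marker shape for the replicate; the dotted line marks equal values. Notch3 lies near the line in both groups, whereas for Dll4 all 4 Trp53ΔIEC tumours lie above and all 4 Trp53ΔIECAktE17K tumours below it.

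Dll1 (ENSMUSG00000014773, chromosome 17, 15367354 to 15376872, minus strand), the Delta-like ligand of secretory progenitors, was at 14.3, 13.7, 10.3 and 11.6 CPM in Trp53ΔIEC and at 10.9, 8.40, 12.6 and 12.2 CPM in Trp53ΔIECAktE17K tumours. The groups overlapped over most of their range. Its log2 fold change was -0.18 (95% interval -0.67 to 0.31; edgeR, adjusted p = 0.681). The gene shares 867 exonic bases, 20.5% of its length, with A930024N18Rik on the other strand, whose own reads came to at most 9.51% of those of Dll1. Of 6 secretory epithelium genes 1 was called higher (Spdef, with Chga next by p-value), and their sums of 331 to 892 and 574 to 2452 CPM overlapped.

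Dll3 (ENSMUSG00000003436, chromosome 7, 28293553 to 28302238, minus strand), a ligand that acts inside the cell as an inhibitor and is known from somites and neuroendocrine tumours, was near the limit of detection in Trp53ΔIEC tumours, with 11, 6, 0 and 3 reads (0.42, 0.23, 0 and 0.14 CPM). The tumour with 0 reads allows a level of up to 0.17 CPM, that of 3 reads. In Trp53ΔIECAktE17K tumours there were 17, 83, 290 and 8 reads (0.72, 3.42, 12.2 and 0.37 CPM). The groups overlapped: replicates 2 and 3 of Trp53ΔIECAktE17K were above every other tumour, and replicate 4 was below Trp53ΔIEC replicate 1. The mean CPM was 21.2-fold higher in Trp53ΔIECAktE17K tumours, and 7.65-fold higher without replicate 3. Dll3 did not pass the filter on low counts, and without that filter its log2 fold change was 4.30 (95% interval 1.47 to 7.14; edgeR, adjusted p = 0.121).

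Dll3 made up 21.7% of the ligand CPM per kb in Trp53ΔIECAktE17K replicate 3 and 5.21% in replicate 2, against at most 0.59% in the other 6 tumours. Replicate 3 was also the tumour with the highest crypt stem cell sum, 680 CPM, against 135 to 256 CPM in Trp53ΔIEC and 172 to 514 CPM in the other Trp53ΔIECAktE17K tumours. The 4 genes of that list went different ways in this tumour: Smoc2 (448 CPM) and Lgr5 (227 CPM) carried the sum, while Ascl2 (3.15 CPM) was the lowest of all 8 tumours and Olfm4 was at 1.05 CPM. Over the groups Ascl2 was called lower in Trp53ΔIECAktE17K tumours, and Smoc2 was next by p-value. The neuroendocrine marker Chga was at 49.1, 70.5, 27.9 and 27.8 CPM in Trp53ΔIECAktE17K replicates 1 to 4 and at 7.35 to 30.4 CPM in Trp53ΔIEC tumours, so it did not follow the order of Dll3. The part of any cell type in the Dll3 level was not tested.

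Jag1 (ENSMUSG00000027276, chromosome 2, 137081456 to 137116644, minus strand), a ligand of endothelium, smooth muscle and many epithelia, was at 21.05, 19.9, 28.8 and 24.6 CPM in Trp53ΔIEC tumours. In Trp53ΔIECAktE17K tumours it was at 128.6, 40.1, 14.7 and 44.5 CPM. Of these 4, 3 were above every Trp53ΔIEC tumour and replicate 3 was below all of them, so the groups overlapped at both ends. The log2 fold change was 1.27 with a standard error of 0.56 (edgeR, adjusted p = 0.241), with a 95% interval from just under 0 to 2.55. It was 0.47 without Trp53ΔIECAktE17K replicate 1 and 1.19 to 1.6 in the other runs without 1 tumour, 0.90 in limma-voom and 0.30 among the tumours whose titles have B.

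The order of the Trp53ΔIECAktE17K tumours by Jag1 was also their order by the sum of 5 squamous epithelium genes, 1 of 14 marker lists. That sum was 15168, 555, 193 and 2238 CPM in replicates 1 to 4. In Trp53ΔIEC replicates 1 to 4 it was 49.0, 110, 89.4 and 193 CPM, an order that Jag1 did not follow. Of these 5 genes 3 were called higher (Krt6a and Krt5 first), 0 of them in limma-voom, and Krt5, the keratin of basal squamous cells, was at most 0.71 CPM in Trp53ΔIEC tumours. Replicate 1 was at the same time the tumour with the highest Notch3, pericyte and smooth muscle values. The part of squamous or stromal cells in the Jag1 level was not tested.

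Jag2 (ENSMUSG00000002799, chromosome 12, 112907819 to 112929776, minus strand), the other Jagged ligand, was at 68.5, 77.0, 46.2 and 81.7 CPM in Trp53ΔIEC and at 86.2, 29.7, 35.9 and 55.1 CPM in Trp53ΔIECAktE17K tumours. Both the highest and the lowest of the 8 values were in the Trp53ΔIECAktE17K group. In the fit the log2 fold change was -0.40 (95% interval -1.18 to 0.38; edgeR, adjusted p = 0.544). As a share of ligand CPM per kb Jag2 made up 43.0 ± 8.41% in Trp53ΔIEC and 26.8 ± 6.37% in Trp53ΔIECAktE17K tumours, and Jag1 18.4 ± 5.86% and 31.7 ± 15.9%.

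Ordered by mean CPM per kb of exon, the 9 genes in Trp53ΔIEC tumours were Jag2 (9.81), Dll4 (5.91), Notch2 (4.49), Jag1 (4.05), Notch1 (3.40), Dll1 (2.96), Notch4 (2.71), Notch3 (1.22) and Dll3 (0.069). Neighbours from Jag2 to Notch4 had ranges over the 4 tumours that overlapped, whereas Notch3 lay below Notch4 and Dll3 below Notch3 in range. In Trp53ΔIECAktE17K tumours the order was Jag1 (9.77), Jag2 (7.42), Dll4 (5.94), Notch2 (4.31), Notch3 (3.81), Notch4 (3.06), Notch1 (2.82), Dll1 (2.62) and Dll3 (1.46), and every pair of neighbours overlapped. The summed CPM per kb of the 4 receptors was 11.8 ± 1.31 and 14.0 ± 3.43 in the 2 groups, and that of the 5 ligands 22.8 ± 3.40 and 27.2 ± 10.4. These levels divide by the whole annotated exon length, which overstates the length of the transcripts present.

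Among the most like patterns of the other tested genes were Lcorl and Cux1 for Notch1, Spryd7, Polb and Uprt for Notch2, and Ndufb7, Csf2ra and Ybx1 for Notch4. For the ligands they were Vps11, Tysnd1 and Wdtc1 for Dll1, Polr3gl, Nmral1 and Gm26862 for Dll4, Prkar2b, 4833422C13Rik and Mef2c for Jag1, and Smad7, Rnf32 and Atxn1 for Jag2. None of the genes named here was called, but they were picked for likeness to uncalled genes, so this is no separate result. Small differences between profiles are common among genes that vary little, so a rank in this measure is a description of these tumours.

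The rest of the pathway was followed in 8 lists with 59 genes, of which 56 were tested, 3 were called higher and 0 were called lower. At an unadjusted p under 0.05 in edgeR, which 20.8% of all tested genes reached, 11 were higher and 3 lower. DESeq2 called 10 higher and 3 lower, and limma-voom called 2 higher and 0 lower. The median log2 fold change was 0.05, and the values of 9 of the 56 did not overlap between the groups. The shares called by edgeR and without overlap are near those of all tested genes, 4.20% and 14.2%, and are no result about the pathway. DESeq2 called 1416 of all 16539 genes higher and 753 lower, and the larger share of DESeq2 calls in these lists was not tested.

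Among proteins other than the classical ligands that bind Notch receptors, 2 of 7 tested genes were called higher, and both encode microfibril-associated glycoproteins, which are matrix components. Mfap5 was at 2.18, 1.02, 1.96 and 1.68 CPM in Trp53ΔIEC and at 61.4, 55.7, 41.7 and 7.54 CPM in Trp53ΔIECAktE17K tumours, a log2 fold change of 4.61 (edgeR, adjusted p = 0.0142). Mfap2 was at 5.59, 2.93, 4.97 and 4.42 CPM in Trp53ΔIEC and at 21.04, 16.4, 11.7 and 10.9 CPM in Trp53ΔIECAktE17K tumours, a log2 fold change of 1.74 (edgeR, adjusted p = 0.026). With 1 tumour left out at a time, Mfap5 missed the test in 3 of 8 runs, those without Trp53ΔIEC replicate 2, 3 or 4 (edgeR, adjusted p of up to 0.0657), and in limma-voom (0.0546). Mfap2 missed it in 6 of 8, all but those without Trp53ΔIECAktE17K replicate 3 or 4 (edgeR, adjusted p of up to 0.0822), and limma-voom called it. Neither gene was called with replicate number or title letter as a term, or in tumours whose titles have B (edgeR, adjusted p 0.0503 to 0.204). Both genes were higher in every Trp53ΔIECAktE17K tumour than in any Trp53ΔIEC tumour, as were the fibroblast genes Col1a2 and Dcn.

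Of the 8 trafficking and turnover genes 1 was called. Numbl, a relative of the Notch inhibitor Numb, was at 11.7, 9.66, 9.78 and 8.003 CPM in Trp53ΔIEC and at 20.2, 19.8, 21.8 and 15.3 CPM in Trp53ΔIECAktE17K tumours. The groups did not overlap, and the log2 fold change was 0.98 (edgeR, adjusted p = 0.0377). That call was missed in 7 of the 8 runs without 1 tumour, all but the run without Trp53ΔIECAktE17K replicate 4. Over these runs the edgeR adjusted p reached 0.106, and the log2 fold change was 0.89 to 1.07. Numbl was also missed with replicate number or title letter as a term and in tumours whose titles have B. The edgeR adjusted p was 0.102 to 0.269 there, and 0.0524 without the filter on low counts.

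In the other 6 lists, the targets among them, edgeR called 0 genes (5 higher and 2 lower at an unadjusted p under 0.05), DESeq2 called 4 higher and 2 lower, and limma-voom 0. The genes with the smallest p-values were Mfng and Rfng among 5 genes of receptor glycosylation (log2 fold change 1.14 and 0.30). They were Furin and Ncstn among 10 genes of receptor cleavage (-0.37 and -0.38). They were Epn2 and Mib1 among 6 genes of ligand endocytosis (0.25 and -0.09), and Spen and Hdac1 among 6 corepressors (-0.25 and -0.47). In the nuclear activator complex, 9 genes, they were the acetyltransferases Crebbp and Ep300, with log2 fold changes of -0.60 and -0.35 (edgeR, adjusted p = 0.0603 and 0.096). Crebbp was at 35.6 to 41.1 CPM in Trp53ΔIEC and 21.4 to 30.8 CPM in Trp53ΔIECAktE17K tumours, with no overlap.

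The transcriptional targets are known as a readout of receptor activity. Of 7 listed targets 5 were tested, and edgeR called 0 of them. At an unadjusted p under 0.05, which 20.8% of all tested genes reached in either direction, 4 were higher. All 5 had a log2 fold change above 0, with a median of 1.54. The 7 genes summed to 94.5 to 126 CPM in Trp53ΔIEC and 138 to 231 CPM in Trp53ΔIECAktE17K tumours. DESeq2, which called 1416 of all 16539 genes higher, called 3 of the 5 (Hey1, Hey2 and Nrarp), all higher, and limma-voom 0. Nrarp, a feedback inhibitor that Notch induces, was at 14.2, 9.48, 18.2 and 19.7 CPM in Trp53ΔIEC and at 74.9, 25.4, 30.4 and 47.7 CPM in Trp53ΔIECAktE17K tumours. Its groups did not overlap, and its log2 fold change of 1.54 missed the threshold (edgeR, adjusted p = 0.0646). Hey2 had a log2 fold change of 2.38 (edgeR, adjusted p = 0.144), with 0.30 to 1.30 CPM in Trp53ΔIEC and 1.23 to 11.2 CPM in Trp53ΔIECAktE17K tumours.

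The other members of the target list are given to complete it. Hes1, the main target in crypt progenitors, was at 77.5 to 96.6 CPM in Trp53ΔIEC and 76.9 to 100.5 CPM in Trp53ΔIECAktE17K tumours, a log2 fold change of 0.09 (edgeR, adjusted p = 0.751). Hey1 and Heyl, known in vessels, had log2 fold changes of 1.85 and 1.54 (edgeR, adjusted p = 0.148 and 0.168). Heyl, a target in vascular smooth muscle, was at 8.15, 2.97, 5.31 and 5.03 CPM in Trp53ΔIEC and at 32.3, 14.8, 10.6 and 4.89 CPM in Trp53ΔIECAktE17K tumours, so that replicate 1 led as it did for Notch3. Hes5 and Hes7 had too few reads to be tested.

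**Figure D5:**
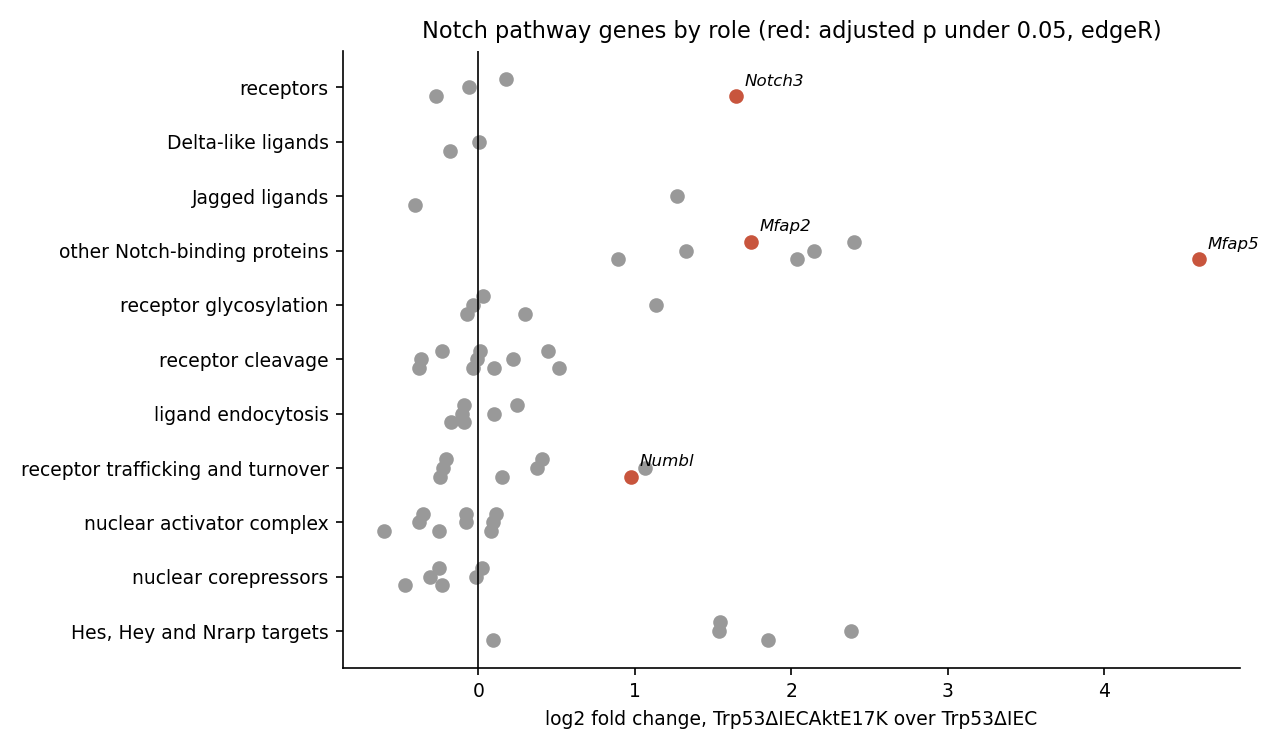
Log2 fold change of Trp53ΔIECAktE17K over Trp53ΔIEC (horizontal axis) for each tested gene of the pathway, 1 point per gene, in rows by role; red marks an adjusted p under 0.05 (edgeR). The called genes are Notch3, Mfap2, Mfap5 and Numbl, and the rows for cleavage, endocytosis and nuclear proteins lie between -0.60 and 0.52.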

How the data were processed

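RNA from 8 whole colon tumours was made into libraries with a TruSeq mRNA v2 kit, which does not record the strand, per the labels' protocols. The authors deposited raw counts of reads per Ensembl gene for each tumour, not normalised. Per the submitters' processing notes, the build was mm10 and the tools, with no roles stated, were HTSeq 0.6, STAR 2.3.0, DESeq2 1.8.1, CASAVA 1.8.2 and SAMtools 1.2. The strand setting and annotation release are not given in the labels used here. Symbols and exon lengths came from GENCODE M21 (36602 of 38355 identifiers matched, 95.4%).

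Counts were tested with edgeR 4.0.16 in R 4.3.3 (filterByExpr, TMM, robust quasi-likelihood F-test, group as the only term), with Benjamini-Hochberg adjustment over 16539 genes. The test was checked on simulated data. DESeq2 1.42.0 and limma-voom 3.58.1 were alternatives. Scores use log2 CPM with a prior count of 2 and a two-sided exact permutation test. P-values refer to variation between mice, 4 per group.

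All 9 genes are named. From each pathway list the called members were named, up to 4, or the 2 with the smallest p-value, and from each marker list the summed CPM and up to 2 members. Some genes that the rule selects are not reported here. The members, lists and rule were chosen with earlier results of these data known. Reads without molecular identifiers are not independent molecules, so the limit given for a count of 0 covers counting error only.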

Additional observations from a re-analysis of the deposited data

Results flagged for a closer look

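In 3 of the 18 sets of 4 tumours (9 genes in 2 groups), 1 tumour stood apart from the other 3 by Dixon's criterion at the 95% level, which chance meets in about 1 of 20 sets. Notch3 was at 56.5 CPM in Trp53ΔIECAktE17K replicate 1, the highest of its group. Dll4 was at 33.4 CPM in Trp53ΔIECAktE17K replicate 2, the highest of its group. Notch2 was at 29.4 CPM in Trp53ΔIECAktE17K replicate 3, the lowest of its group. All 3 sets are in the Trp53ΔIECAktE17K group, and each concerns a different tumour.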

How the results depend on the processing

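The log2 fold change of Notch3 stayed above 0 under all 16 alternatives. It was called under 6 of them, with adjusted p-values over the 16 from 0.000466 (DESeq2) to 0.206. It fell short with limma-voom (1.52, adjusted p = 0.0765), with the letter of the titles as a term (1.09, 0.206), in the tumours of letter B (1.05, 0.168) and in 6 of the 8 runs without 1 tumour, which ranged from 1.15 to 1.79. Same-numbered tumours of the 2 groups did not deviate together (correlations of -0.24 to 0.01). No Trp53ΔIEC tumour correlated best with the Trp53ΔIECAktE17K tumour of its own number, so no pairing by number was seen. With the replicate block Notch3 was at 1.52 (edgeR, adjusted p = 0.0750), and 48 genes were called higher and 2 lower, against 569 and 125. Those counts were 1416 and 753 with DESeq2, 90 and 6 with the letter as a term, 22 and 4 in letter B alone, and 64 to 702 and 10 to 247 without 1 tumour. The cause of these shifts was not tested, and the letter itself differs between the titles and the names of the deposited tables.

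Dll4 minus the endothelial score was -0.75 in letter B (exact permutation p = 0.133), -0.86 with the replicate block (exact p = 0.125) and -0.998 to -0.717 without 1 tumour (exact p = 0.0571). These are the smallest p-values such designs can give, so they say nothing about stability. Values near 0 changed sign: Dll4 was at -0.00604 with DESeq2 size factors, -0.00612 with DESeq2, -0.289 with the letter term, -0.321 in letter B and -0.253 to 0.379 without 1 tumour, and Notch2 at -0.156 to 0.115 without 1 tumour. The other tested members kept their direction and passed no threshold under any alternative, but their sizes moved: Notch1 to -0.05 without Trp53ΔIECAktE17K replicate 3, Dll1 to -0.01 and Jag1 to 0.33 with the letter term, Jag2 to -0.79 without Trp53ΔIECAktE17K replicate 1, and Notch4 to 0.09 without Trp53ΔIEC replicate 1. Dll3 was tested in 5 of the 8 runs without 1 tumour and called in 0. Depth limits Dll3, at 0 to 11 reads per Trp53ΔIEC tumour.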
